A study of Nothobranchius furzeri with 3 samples.

Results

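Tp63 and 8 other genes of epidermal transcription factors were followed in the basal layer of the fin epidermis of the killifish *Nothobranchius furzeri*. They were chosen by symbol, from a list of 9 factors: tp63, grhl1, grhl2, grhl3, klf4, klf5, ovol1, tfap2a and tfap2c. Every entry of the count table whose symbol matched one of these names, or the name followed by a or b for a duplicated fish gene, was taken, which gave 9 of the 22954 genes. Tp63, grhl1, grhl3, tfap2a and tfap2c matched directly, grhl2 was matched by grhl2b, klf4 by KLF4, and klf5 by klf5b and KLF5A. No entry matched ovol1, which was not analysed here.

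RNA was taken from sections by photo-isolation chemistry (PIC), in which reverse transcription primers carry a light-sensitive cage, so that only cells irradiated with UV light give a library. Cells stained with an antibody against p63 in the epidermal basal layer were irradiated. The groups were 3 aged (Tm) libraries from aged fish kept in water with the ER stress inducer tunicamycin at 1 µg/mL, overnight by the labels, 4 aged libraries and 4 young libraries, both from fish kept in DMSO. The labels give no age in months for these fish, name no genotype other than the species, and do not say whether each library came from a separate fish, so that p-values measure the spread between libraries, which may be technical. One sample title covers all replicates of a condition and names no preparation batch. An effect of preparation could thus not be told from one of condition.

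The p63 protein marks the basal cells of stratified epithelia and is needed for the epidermis to form. The AP-2 proteins, encoded by tfap2a and tfap2c, act with p63 in the commitment of surface ectoderm to epidermis. The Grainyhead-like proteins (grhl1, grhl2 and grhl3) bind genes for cell junctions, barrier formation and wound closure, and KLF4 and KLF5 are zinc finger proteins of differentiating and of proliferating keratinocytes in mammals. Because p63 staining chose the cells, the presence of tp63 transcripts is not a finding.

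Total counts of unique molecular identifiers (UMIs, each marking a captured RNA molecule) ranged from 319223 to 705538 in aged (Tm), from 37655 to 265509 in aged and from 35366 to 298033 in young libraries. Aged replicates 1 and 3 and young replicate 3 held fewer than 60000 counts. Levels are in CPM, that is, scaled so that every library sums to 1000000. Each transcript is read from its 3′ end, and counts were not divided by gene length. The summed level of 10 basal keratinocyte genes was 15920 to 17340 CPM in aged (Tm), 26520 to 33540 CPM in aged and 24530 to 59890 CPM in young libraries. Of the 7 basal genes tested with edgeR, as described below, 3 were higher and 1 lower in aged (Tm) over aged, with a median log2 fold change of 1.03. Of all tested genes, 18.5% were higher and 20.2% lower. The basal list includes tp63 itself, whose own log2 fold change was 1.03, so it is not separate from the members. Skeletal muscle genes (22 of them) summed to 4210 to 6304 CPM, 5371 to 23400 CPM and 21810 to 80130 CPM in the same 3 groups, and 21 fibroblast and bone genes to 605 to 2384 CPM, 1598 to 4606 CPM and 8709 to 20690 CPM. Markers of other tissues were thus detected in every group at levels that moved with the group, and their part in the results below was not tested. As in any bulk sample, fewer cells of a type and less RNA per cell cannot be told apart.

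Differential expression was computed with the quasi-likelihood test of edgeR in a model of all 11 libraries, over the 3963 genes that passed a filter on low counts, and a gene was called when its p after Benjamini-Hochberg adjustment was below 0.1. The filter asks for enough counts in no more libraries than the smallest group holds, so a gene can pass through a single group. A call for such a gene leans on the group that let it pass. Tp63, grhl1, grhl2b, grhl3 and tfap2a passed this filter. Tfap2c, klf5b, KLF4 and KLF5A, with 49, 27, 8 and 8 counts over all libraries, did not.

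Tp63 (ENSNFUG00015016206, on an unplaced scaffold) was the most abundant member, with 3375 of the counts of these genes, or 76.3%. Among all genes of a library it ranked between 93rd and 221st by counts. It had 1251, 1673 and 1548 CPM in the aged (Tm) libraries, 319, 1145, 799 and 1381 CPM in the aged libraries, and 1544, 1010, 424 and 1309 CPM in the young libraries. All groups overlapped. The mean was 1490 ± 217 CPM in aged (Tm), 911 ± 462 CPM in aged and 1072 ± 484 CPM in young libraries (SD, n = 3, 4 and 4).

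The difference between aged (Tm) and aged means was 580 CPM (two-sided exact permutation test over 35 splits, p = 0.114, where the smallest possible p is 0.0286). On library sizes scaled by TMM, as in the edgeR fits, it was 1176 CPM (exact permutation p = 0.0857), and without aged replicate 1 it was 382 CPM (exact permutation p = 0.2). Between aged (Tm) and young it was 419 CPM (exact permutation p = 0.257), 932 CPM on TMM-scaled library sizes (exact permutation p = 0.143) and 203 CPM without young replicate 3 (exact permutation p = 0.4). Between aged and young the difference was −161 CPM (exact permutation p = 0.629 over 70 splits, with the same smallest p). With edgeR, the log2 fold change of tp63 was 1.03 over aged in the aged (Tm) libraries (SE 0.72, adjusted p = 0.272), −0.28 (SE 0.67, adjusted p = 0.996) in aged over young and 0.75 (SE 0.72, adjusted p = 0.443) in aged (Tm) over young. None passed the threshold, and the standard errors leave room for changes of more than 1 on the log2 scale in every comparison.

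**Figure D1:**
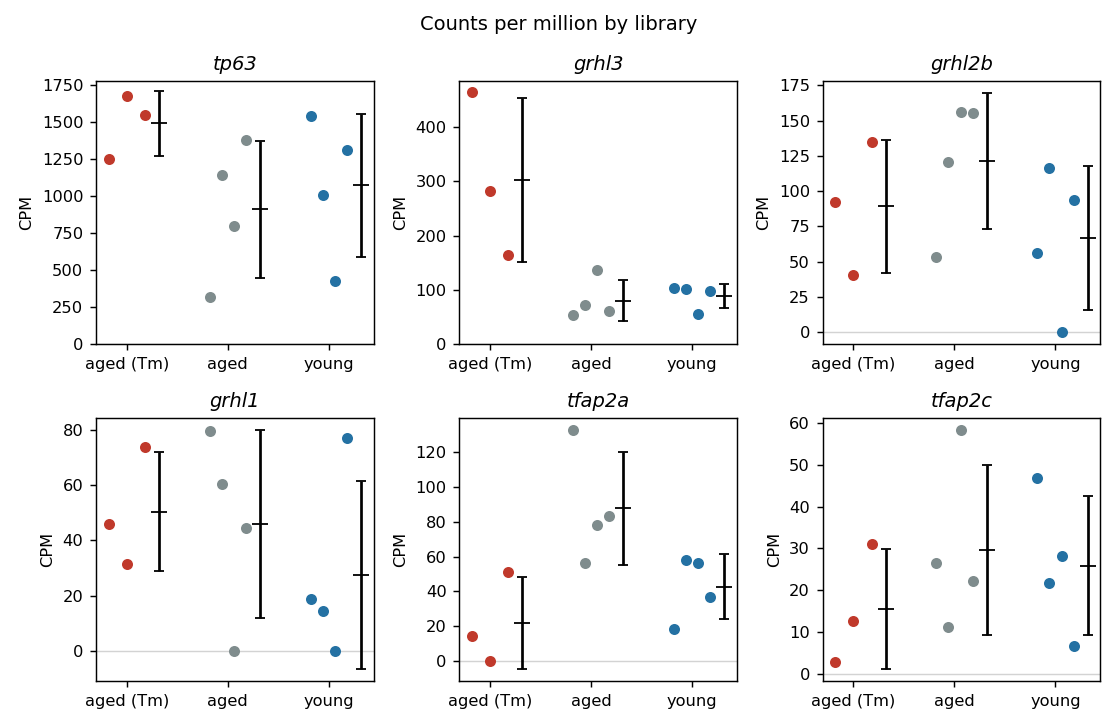
Level of the 6 members with at least 30 counts in all, in CPM (vertical axes, which differ between panels), with a point for each library of the aged (Tm), aged and young groups and the mean ± SD beside the points. The aged (Tm) points of grhl3 (164 to 464 CPM) lie above all aged and young points, those of tfap2a (0 to 51.0 CPM) lie below all aged points, and the groups overlap for tp63. Of all tested genes, 36.1% did not overlap between aged (Tm) and aged and 31.0% between aged (Tm) and young.

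The 3 lowest tp63 levels were those of the 3 libraries under 60000 counts, aged replicate 1, young replicate 3 and aged replicate 3, with 12, 15 and 41 tp63 counts. Their 95% Wilson intervals, which cover counting error only, were 182 to 557 CPM, 257 to 700 CPM and 589 to 1080 CPM. In the other 8 libraries tp63 lay between 1010 and 1673 CPM. The same 3 libraries had the highest summed level of 84 genes of photoreceptors and synapses, which epidermis should hardly express, with 6240 CPM in aged replicate 1, 4290 CPM in aged replicate 3 and 3360 CPM in young replicate 3, against 435 to 2810 CPM in the other libraries. The part of depth and of these genes in the level of tp63 was not tested. Without these 3 libraries the mean was 1490 CPM in aged (Tm) and 1263 CPM in aged libraries (exact permutation p = 0.3, where 0.1 is the smallest), and the edgeR log2 fold change was 0.47 (SE 0.58, adjusted p = 0.619). The difference of means in aged (Tm) over aged thereby dropped to 228 CPM.

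Likeness to tp63 over the 11 libraries was measured in log2 CPM on library sizes scaled by TMM. The most alike genes were RPL37A (Pearson's r = 0.984), COX5A (0.983), rps9 (0.982), RPL14 (0.981) and rack1 (0.981). They encode proteins of the cytosolic ribosome and, for COX5A, a subunit of the respiratory chain. After the mean of each group was removed, r was 0.990 for RPL37A and 0.977 to 0.983 for the others. The libraries behind these correlations differed in depth. With the log2 total counts, the r of the log2 CPM of tp63, on the same scale, was 0.81. The part of depth and composition in these correlations was not tested. The TMM factor of a library, from 0.616 to 1.87, also enters every gene of that library. RPL37A had 6420, 5960 and 3910 CPM in aged (Tm), 159, 5910, 1420 and 5000 CPM in aged and 6190, 2230, 283 and 3720 CPM in young libraries, lowest where tp63 was lowest. COX5A had 0 CPM in aged replicate 1 and young replicate 3, and 39 CPM in aged replicate 3. No r was computed without the 3 libraries under 60000 counts. The other tested members followed tp63 less closely over the libraries, with r = 0.703 for grhl3, 0.581 for grhl2b, 0.408 for grhl1 and −0.630 for tfap2a.

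**Figure D2:**
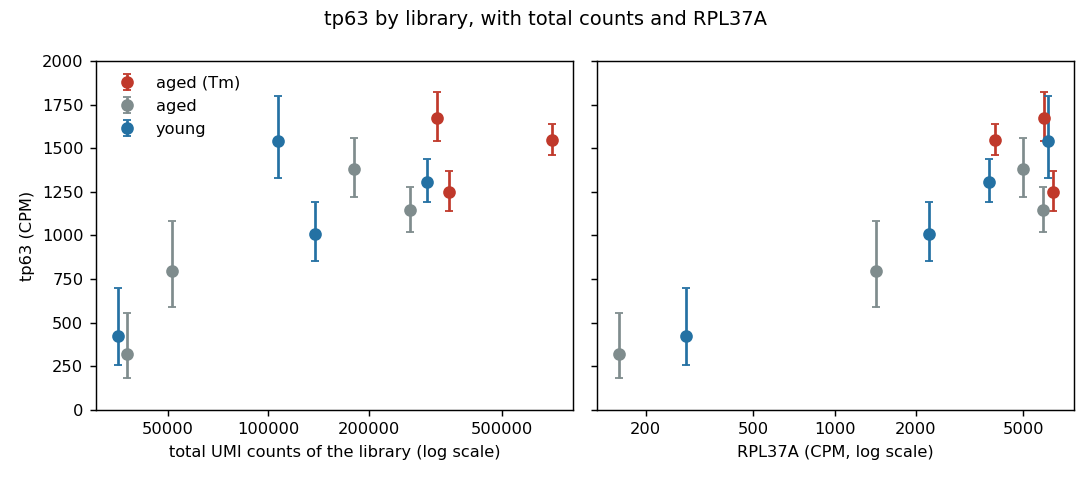
Tp63 in CPM (vertical axis) against the total UMI counts of the library (left, log scale) and against RPL37A in CPM (right, log scale), with a point for each of the 11 libraries, colours for the groups and bars for 95% Wilson intervals of counting error. The 3 libraries under 60000 counts sit lowest, between 319 and 799 CPM.

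Grhl3 (ENSNFUG00015008177, chromosome 16) had the largest log2 fold change of the 5 members tested in aged (Tm) over aged. In zebrafish and mammals grhl3 acts in the outer epidermal layers, in barrier formation and in wound closure. It had 464, 282 and 164 CPM in the aged (Tm) libraries (161, 90 and 116 counts), 53.1, 71.6, 136 and 61.0 CPM in the aged libraries (2, 19, 7 and 11 counts) and 103, 102, 56.55 and 97.3 CPM in the young libraries (11, 14, 2 and 29 counts). Every aged (Tm) library lay above every aged and every young library. The mean was 304 ± 151 CPM in aged (Tm), 80.5 ± 38.0 CPM in aged and 89.6 ± 22.2 CPM in young libraries (SD, n = 3, 4 and 4).

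The log2 fold change of grhl3 was 2.42 (SE 0.56, edgeR adjusted p = 0.00655) in aged (Tm) over aged and 2.10 (SE 0.55, edgeR adjusted p = 0.0115) in aged (Tm) over young. Of all tested genes, 36.1% had groups that did not overlap in the first comparison and 31.0% in the second, so that separation of the groups was common. Grhl3 passed the threshold in each of the 21 alternative fits in which it was tested, 11 of which left out a single library. The adjusted p of these edgeR, DESeq2 and limma voom fits was 0.000109 to 0.0455 against aged and 0.00037 to 0.0879 against young libraries. These fits reuse the same libraries, and every aged (Tm) library was deeper than every aged and young library. After thinning to the smallest library tp63 was the only member tested, so grhl3 was not tested at equal depth. Without the 3 libraries under 60000 counts its log2 fold change was 2.47 (edgeR adjusted p = 0.0124) over aged and 1.95 (edgeR adjusted p = 0.009) over young. Between aged and young libraries it was −0.32 (SE 0.57, edgeR adjusted p = 0.996), and the groups overlapped. The summed level of 7 suprabasal and superficial keratinocyte genes was 6598 to 9636 CPM in aged (Tm), 6719 to 15280 CPM in aged and 10040 to 19170 CPM in young libraries. In the edgeR fit 3 of the 4 of these genes tested had a positive log2 fold change in aged (Tm) over aged and 0 passed the threshold, with a median of 0.29. Over young 4 of 4 were negative and 0 passed, with a median of −0.35, and their part in the level of grhl3 was not tested.

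Grhl1 and grhl2b did not pass the threshold in any comparison. In mammals GRHL1 maintains desmosomes, and GRHL2 maintains epithelial junctions. Grhl2b (ENSNFUG00015013084, chromosome 19) had 92.2, 40.7 and 135 CPM in aged (Tm), 53.1, 121, 156 and 155 CPM in aged and 56.1, 116, 0 and 94.0 CPM in young libraries. Its log2 fold change was −0.21 (SE 0.54, edgeR adjusted p = 0.771) in aged (Tm) over aged, 0.68 (SE 0.54, edgeR adjusted p = 0.986) in aged over young and 0.47 (SE 0.55, edgeR adjusted p = 0.539) in aged (Tm) over young, and all groups overlapped. Grhl1 (ENSNFUG00015019980, chromosome 16) had 46.1, 31.3 and 73.7 CPM in aged (Tm), 79.7, 60.3, 0 and 44.4 CPM in aged and 18.7, 14.5, 0 and 77.2 CPM in young libraries, which also overlapped. Its log2 fold change was 0.33 (SE 0.61, edgeR adjusted p = 0.682) in aged (Tm) over aged, 0.36 (SE 0.65, edgeR adjusted p = 0.996) in aged over young and 0.70 (SE 0.61, edgeR adjusted p = 0.395) in aged (Tm) over young. The sign of the first difference of both genes turned with the normalization. A count of 0 in young replicate 3 allows up to 84.8 CPM, and in aged replicate 3 up to 58.5 CPM (3 counts of the total, counting error only).

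The share of grhl3 among the counts of the 3 GRHL genes does not depend on the total of a library. It was 77.0%, 79.6% and 44.1% in aged (Tm), 28.6%, 28.4%, 46.7% and 23.4% in aged and 57.9%, 43.8%, 100% and 36.2% in young libraries. Grhl3 had the most counts of the 3 genes in 3 of 3 aged (Tm), 0 of 4 aged and 3 of 4 young libraries. Aged (Tm) replicates 1 and 2 lay above all aged libraries, whereas replicate 3 lay within their range, with a 95% Wilson interval of 38.2% to 50.1% over 263 counts. Pooled over libraries, grhl3 held 62.7% of 585, 28.7% of 136 and 42.1% of 133 GRHL counts in aged (Tm), aged and young. Summed over the 3 genes, the level was 443 ± 138 CPM in aged (Tm), 248 ± 44.7 CPM in aged and 184 ± 92.7 CPM in young libraries (SD, n = 3, 4 and 4), with ranges of 354 to 602 CPM, 186 to 292 CPM and 56.6 to 268 CPM.

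**Figure D3:**
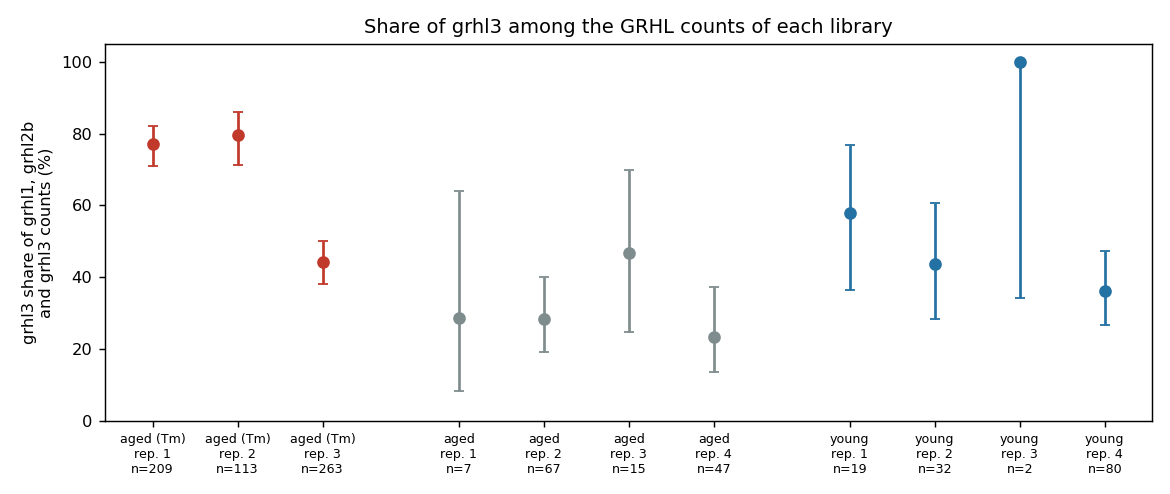
Share of grhl3 among the counts of grhl1, grhl2b and grhl3 (vertical axis, percent) in each library, with 95% Wilson intervals of counting error and, under each library, the number n of GRHL counts. Aged (Tm) replicates 1 and 2 sit at 77.0% and 79.6%, aged libraries between 23.4% and 46.7%, and the 100% of young replicate 3 rests on 2 counts.

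Relative to tp63 in the same library, grhl3 had 37.1, 16.9 and 10.6 counts for each 100 tp63 counts in aged (Tm), 16.7, 6.25, 17.1 and 4.42 in aged and 6.67, 10.1, 13.3 and 7.44 in young libraries. On this scale the groups overlapped. Pooled, it was 17.8 in aged (Tm), 6.44 in aged and 7.90 in young libraries.

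Tfap2a (ENSNFUG00015018989, chromosome 8) was lower in aged (Tm) than in aged libraries. It had 14.4, 0 and 51.0 CPM in aged (Tm) (5, 0 and 36 counts), 133, 56.5, 77.9 and 83.2 CPM in aged (5, 15, 4 and 15 counts) and 18.7, 58.1, 56.55 and 36.9 CPM in young libraries (2, 8, 2 and 11 counts). The aged (Tm) and aged libraries did not overlap, as for 36.1% of all tested genes, while the young libraries overlapped both. A count of 0 in aged (Tm) replicate 2 allows up to 9.40 CPM. The mean was 21.8 ± 26.3 CPM in aged (Tm), 87.6 ± 32.3 CPM in aged and 42.6 ± 18.6 CPM in young libraries (SD, n = 3, 4 and 4).

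The log2 fold change of tfap2a was −1.50 (SE 0.61, edgeR adjusted p = 0.0689) in aged (Tm) over aged. Tfap2a passed the filter on low counts only with the aged libraries, where it was highest, so the call leans on the group compared. This call was lost without any 1 of 4 libraries: without aged (Tm) replicate 1 the log2 fold change was −1.29 (edgeR adjusted p = 0.196), without aged (Tm) replicate 2 it was −0.93 (0.232), without aged replicate 1 it was −1.32 (0.123) and without aged replicate 4 it was −1.28 (0.176). Without aged (Tm) replicate 3, which holds most tfap2a counts of its group, it was −2.48 (edgeR adjusted p = 0.0229). The call was also lost without the 3 libraries under 60000 counts, at −1.41 (edgeR adjusted p = 0.166), and with no filter on low counts, at −0.73 (0.542). The log2 fold change of tfap2a over young libraries was 0.94 in aged (SE 0.63, edgeR adjusted p = 0.963) and −0.56 (SE 0.65, edgeR adjusted p = 0.531) in aged (Tm) libraries.

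Tfap2c (ENSNFUG00015004896, chromosome 10) had 1, 4 and 22 counts in aged (Tm), 1, 3, 3 and 4 in aged and 5, 3, 1 and 2 in young libraries, and its CPM overlapped in all groups (2.88 to 31.2, 11.3 to 58.5 and 6.71 to 46.8). In the fit without a filter its log2 fold change was 0.52 (SE 0.71, edgeR adjusted p = 0.730) in aged (Tm) over aged and −0.14 (SE 0.80, edgeR adjusted p = 1) in aged over young. Of the counts of both AP-2 genes, tfap2a held 41 of 68 in aged (Tm), 39 of 50 in aged and 23 of 34 in young libraries, or 60.3%, 78.0% and 67.6%.

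Aged (Tm) replicate 3, the deepest library, stood apart from the other aged (Tm) libraries in several members. It held 36 of the 41 tfap2a counts and 22 of the 27 tfap2c counts of this group, and it had the lowest grhl3 and the highest grhl2b level of the 3. Without it, the log2 fold change of grhl3 was 3.12 (edgeR adjusted p = 0.000602) over aged and 2.85 (edgeR adjusted p = 0.00109) over young.

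The KLF genes were close to the limit of detection. Klf5b (ENSNFUG00015016505, chromosome 14) had 2, 2 and 10 counts in aged (Tm), 1, 2, 1 and 7 in aged and 0, 0, 0 and 2 in young libraries. Aged libraries, at 7.53 to 38.8 CPM, did not overlap young libraries, at 0 to 6.71 CPM, as for 3.66% of the genes tested, but a single count was worth 19.5 to 28.3 CPM in the libraries under 60000 counts. In the fit without a filter the log2 fold change of klf5b in aged over young was 2.28 (SE 1.06, edgeR adjusted p = 0.885). KLF4 (ENSNFUG00015000807, chromosome 2) had 1 count in aged (Tm), 6 in aged and 1 in young libraries, and KLF5A (ENSNFUG00015024798, chromosome 3) had 2, 3 and 3. No KLF member passed the threshold in the fit without a filter, where the adjusted p was 0.282 or more in each comparison.

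Of the 5 members tested, 2 passed the threshold in aged (Tm) over aged, grhl3 higher and tfap2a lower, where 38.7% of all tested genes passed, 18.5% higher and 20.2% lower. None of the 5 (0 of 5) passed in aged over young, where 0.707% of all genes did. The unadjusted edgeR p was below 0.05 for 0 of these 5, beside 242 of all 3963 tested genes. DESeq2 and limma voom called 0 of the 5 too, beside 67 and 38 of all tested genes. Against young libraries 1 of 5 passed in aged (Tm), where 29.1% of all genes did, 15.9% higher and 13.2% lower. A share of 2 in 5 or 1 in 5 is thus close to the background. The median log2 fold change of all tested genes in aged (Tm) over aged was −0.03 and moved to 0.18 with RLE, −0.52 with upper quartile and −0.58 with total count normalization. The calls split into 733 higher and 801 lower with TMM, 960 and 659 with RLE, 420 and 1225 with upper quartile and 370 and 1025 with total counts alone. Against young libraries they split into 632 and 523 with TMM, 868 and 377 with RLE, 406 and 907 with upper quartile and 346 and 474 with total counts. Of the calls in aged over young, 3 were higher and 25 lower with TMM, and 3 and 11 with total counts. Relative to the median of all genes, grhl3 stood 2.28 to 2.53 higher and tfap2a −1.51 to −1.42 in aged (Tm) over aged across these normalizations.

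**Figure D4:**
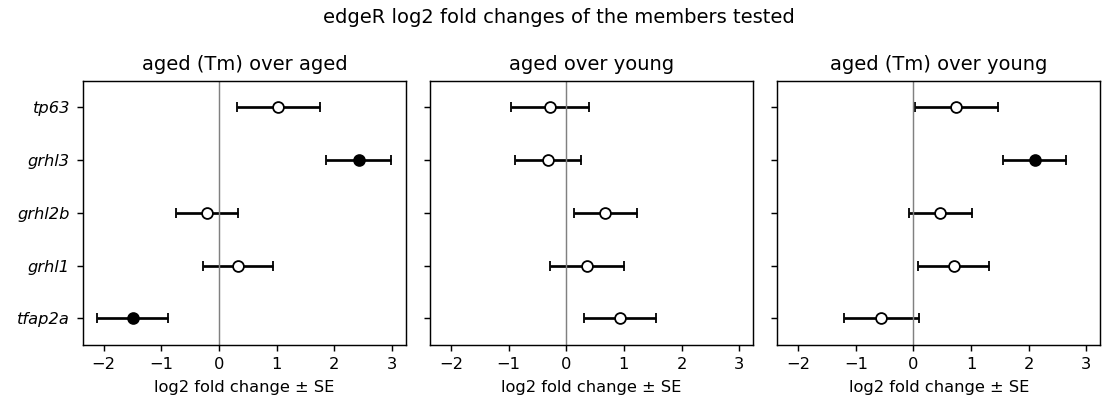
Log2 fold change ± SE from edgeR (horizontal axis) of the 5 members tested, in aged (Tm) over aged, aged over young and aged (Tm) over young. Filled points passed the threshold of 0.1 on the adjusted p: grhl3 at 2.42 and 2.10 and tfap2a at −1.50, while no member passed in aged over young.

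Genes known in mammals or zebrafish as p63 targets passed the threshold in both directions, at a share close to that of all genes. Of 54 found, 22 were tested, and in aged (Tm) over aged 6 were higher, 4 were lower and 12 did not pass, where 38.7% of all tested genes passed, 18.5% higher and 20.2% lower. The median log2 fold change was −0.23, beside −0.03 over all tested genes. The list was not split into genes that p63 activates and represses, so its median gives no direction of p63 activity. The higher genes included CDKN1A, an inhibitor of the cell cycle, at 2.69 (SE 0.55, edgeR adjusted p = 0.00301) with 121 ± 32.8 CPM in aged (Tm) and 20.1 ± 16.5 CPM in aged libraries (SD, n = 3 and 4). They also included genes that anchor basal cells to the basement membrane: ITGA6, the integrin α6 chain, at 2.42 (edgeR adjusted p = 0.00572), itgb4, its partner in hemidesmosomes, at 2.20 (0.0356) and ITGB1, the integrin β1 chain, at 1.99 (0.0199). ITGA6 had 276 ± 255 CPM in aged (Tm) and 63.2 ± 19.4 CPM in aged libraries, and itgb4 1020 ± 599 CPM and 252 ± 168 CPM. The aged (Tm) and aged libraries overlapped for itgb4 and ITGB1, but not for ITGA6. CDKN1A passed the filter on low counts only through the aged (Tm) libraries, and ITGB1 passed it only with them. Both calls lean on the group where these genes were high. The lowest level of CDKN1A in aged (Tm) was 86.5 CPM, beside at most 38.8 CPM in aged and 33.6 CPM in young libraries. Given the filter, this gap is no separate support for the call. Of all tested genes, 36.1% had groups that did not overlap in aged (Tm) over aged and 31.0% in aged (Tm) over young.

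Satb1b, a chromatin organizer that p63 activates in mouse epidermis, was lower at −2.21 (SE 0.59, edgeR adjusted p = 0.0136), with 13.2 ± 7.77 CPM in aged (Tm) and 99.0 ± 69.6 CPM in aged libraries. Satb1b passed the filter on low counts only with the aged libraries, where its mean was highest, so this call leans on that group. The other genes past the threshold, named after their values were seen, were plecb and dspa, higher, and ITGA6A, JAG1B and the member tfap2a, lower. ITGA6A, a related copy of ITGA6, had a log2 fold change of −1.89 (edgeR adjusted p = 0.0486), opposite in sign to ITGA6, and reads shared between such copies were not tested. Compared with young libraries, 5 of 22 were higher in aged (Tm) and 2 lower, where 15.9% of all tested genes were higher and 13.2% lower. Among them were ITGA6 at 3.12, ITGB1 at 2.66, CDKN1A at 2.61, itgb4 at 2.24 and satb1b at −1.89. The other lower gene, named after its value was seen, was itgb1a at −1.615 (edgeR adjusted p = 0.0206). Itgb1a is a related copy of ITGB1 with the opposite sign, and had −0.90 (edgeR adjusted p = 0.162) over aged. Between aged and young 0 of 22 passed with edgeR or DESeq2, where 28 and 67 of all 3963 tested genes passed. An unadjusted p below 0.05 was found with edgeR for 0 of 22 and for 242 of all tested genes.

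Of 31 GRHL target genes known in mammals or fish, 11 were tested. Of these, 3 were higher in aged (Tm) over aged, 2 were lower and 6 did not pass, close to the 38.7% of all tested genes that passed, 18.5% higher and 20.2% lower. The median log2 fold change was 0.41, beside −0.03 over all tested genes. The higher genes were dspa, the desmosome protein desmoplakin, at 1.90 (SE 0.69, edgeR adjusted p = 0.0454), spint1b, an inhibitor of membrane proteases, at 1.66 (SE 0.62, adjusted p = 0.0493) and tjp3, a tight junction scaffold, at 1.61 (SE 0.51, adjusted p = 0.0265). Tjp3 had 226 ± 101 CPM in aged (Tm), 106 ± 35.6 CPM in aged and 99.9 ± 32.7 CPM in young libraries (SD, n = 3, 4 and 4). Its aged (Tm) libraries, from 135 CPM, overlapped the aged (up to 136 CPM) and young libraries (up to 141 CPM). Dspa overlapped between aged (Tm) and aged libraries too, whereas spint1b did not. The lower genes were tjp1b at −2.16 (SE 0.74, edgeR adjusted p = 0.0363) and tjp1a at −1.52 (SE 0.60, adjusted p = 0.063), both of them copies of the tight junction scaffold ZO-1. Both passed the filter on low counts only with the aged libraries, where their means were highest, so both calls lean on that group. Epcam, also named after its value was seen, had a log2 fold change of 1.65 with an edgeR adjusted p of 0.106. Compared with young libraries, tjp3 alone passed in aged (Tm), at 1.61 (edgeR adjusted p = 0.0296), where 15.9% of all tested genes were higher and 13.2% lower. Between aged and young 0 of 11 passed with edgeR or DESeq2, where 28 and 67 of all 3963 tested genes passed. An unadjusted p below 0.05 was found with edgeR for 1 of 11 and for 242 of all tested genes.

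**Figure D5:**
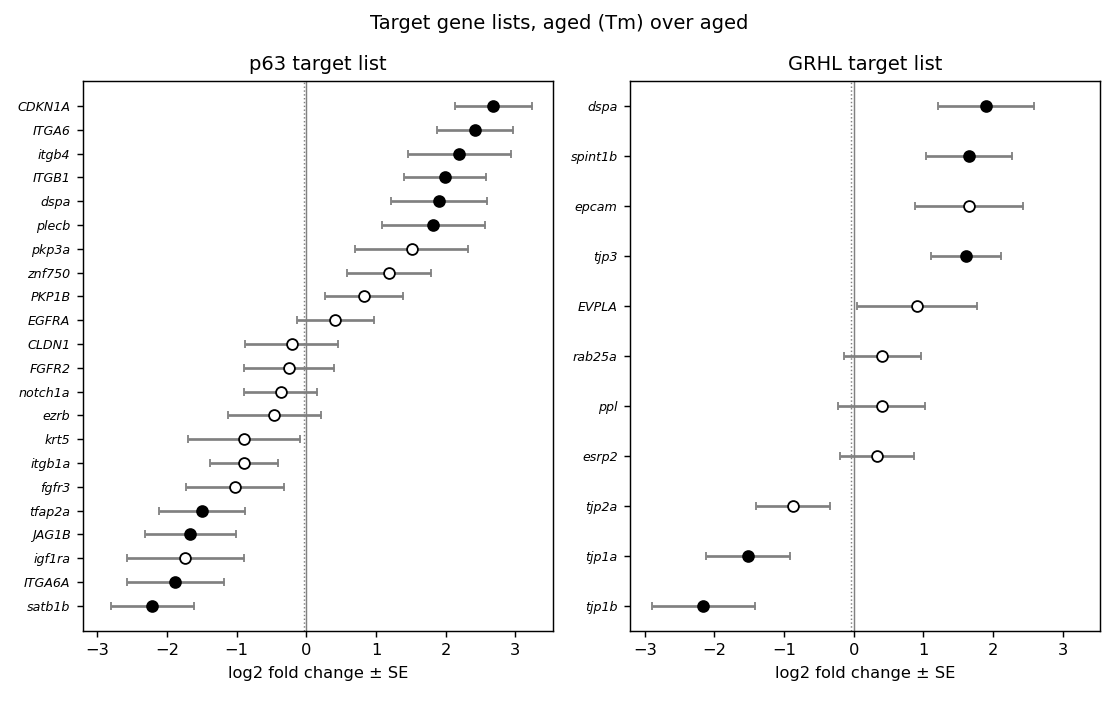
Log2 fold change ± SE from edgeR (horizontal axis), in aged (Tm) over aged, of the tested genes of the p63 target list (22 genes, left) and the GRHL target list (11 genes, right), ordered by value, with filled points past the threshold of 0.1 on the adjusted p and a dotted line at the median of all tested genes. Both lists hold genes past the threshold in both directions, 6 higher and 4 lower on the left and 3 higher and 2 lower on the right.

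The median of the p63 target list was negative and that of the GRHL target list positive with TMM, RLE and total counts (−0.04 and 0.61 with RLE, −0.54 and 0.06 with total counts). With upper quartile normalization both were negative (−0.67 and −0.05). The median of all tested genes was −0.52 with upper quartile and −0.58 with total counts. The counts called higher and lower were 7 and 4 with RLE, 5 and 6 with upper quartile and 4 and 7 with total counts for the p63 targets, and 4 and 2, 1 and 3, and 1 and 2 for the GRHL targets. Of all 3963 tested genes they were 960 and 659, 420 and 1225, and 370 and 1025 with these normalizations. Without the 3 libraries under 60000 counts, 3 of 27 p63 targets were higher and 0 lower, and 2 of 14 GRHL targets were higher and 0 lower. In that fit 533 of all 5302 tested genes were higher and 283 lower.

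Relatives of the members were mostly too scarce to test. None of the 2 other genes of the p53 family, the 2 other AP-2 genes and the 3 OVOL and GRHL relatives passed the filter. Of 23 other KLF and SP genes 4 were tested, and 2 were higher and 0 lower in aged (Tm) over aged. Of all tested genes, 18.5% were higher and 20.2% lower. The 2 became 3 with RLE, and 1 with upper quartile, with total counts and without the 3 libraries under 60000 counts. KLF2 had a log2 fold change of 1.97 (SE 0.58, edgeR adjusted p = 0.0198), with 428 ± 243 CPM in aged (Tm), 124 ± 84.0 CPM in aged and 250 ± 104 CPM in young libraries (SD, n = 3, 4 and 4). Its aged (Tm) libraries, from 213 CPM, overlapped the aged libraries, up to 244 CPM. KLF9, a zinc finger protein that glucocorticoids induce in mammalian keratinocytes, had 1.26 (SE 0.56, edgeR adjusted p = 0.0937) over aged and 2.51 (SE 0.63, edgeR adjusted p = 0.00876) over young. It had 75.0 ± 46.2 CPM in aged (Tm), 47.2 ± 24.9 CPM in aged and 13.0 ± 12.1 CPM in young libraries. Its aged (Tm) libraries overlapped those of both other groups. KLF9 passed the filter on low counts only with the aged (Tm) libraries, where it was highest, so both calls lean on that group.

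Of 62 other epidermal transcription factors found, 11 were tested, and 4 were lower and 0 higher in aged (Tm) over aged. Of all tested genes, 20.2% were lower and 18.5% higher. DESeq2 called 4 lower and 1 higher of the 11, beside 758 lower and 1048 higher of all 3963 tested genes. Without the 3 libraries under 60000 counts, 3 of 16 were higher and 3 lower over aged, and 4 higher and 4 lower over young. Of all 5302 genes tested there, 533 were higher and 283 lower over aged, and 877 and 598 over young. DLX5A, a homeobox factor of fin and craniofacial ectoderm, was lower at −3.32 (SE 0.63, edgeR adjusted p = 0.00193), with 4.82 ± 5.86 CPM in aged (Tm), 88.2 ± 48.9 CPM in aged and 98.1 ± 42.7 CPM in young libraries (SD, n = 3, 4 and 4). Satb1b, given above, HER9 at −1.47 (SE 0.54, edgeR adjusted p = 0.0484) and tead3a at −1.85 (SE 0.76, edgeR adjusted p = 0.0702) were the others. Like satb1b, tead3a passed the filter on low counts only with the aged libraries, where its mean was highest. Its aged (Tm) and aged libraries overlapped. HER9, a hairy-related repressor, had 99.2 ± 55.0 CPM in aged (Tm), 329 ± 124 CPM in aged and 326 ± 74.2 CPM in young libraries. Znf750, which acts downstream of p63 in human keratinocytes and was named after its value was seen, did not pass (1.18, SE 0.60, edgeR adjusted p = 0.136). DLX5A, hopx, satb1b and HER9 were lower in aged (Tm) over young, hopx at −2.10 (SE 0.62, edgeR adjusted p = 0.023). Of all tested genes, 13.2% were lower and 15.9% higher in this comparison. Between aged and young 0 of 4 KLF and SP genes and 0 of 11 other factors passed with edgeR or DESeq2. Of all 3963 tested genes, 28 and 67 passed. An unadjusted p below 0.05 was found with edgeR for 0 of these genes and for 242 of all tested genes.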

How the data were processed

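Photo-isolation chemistry libraries of p63-stained basal cells were prepared by the CEL-seq2 method. The study's methods name trunk and fin sections, and its legend on these libraries names the fin. Per the labels, the authors' processing named UMI-tools 1.0.0, HISAT2 2.1.0, featureCounts 1.6.4 and DESeq2 1.20.0. The genome build and UMI length are not given in the sources used here. The deposited values are whole UMI counts per gene without normalization, for 22954 genes in 11 libraries that GEO groups as 3 samples. Libraries were assigned to groups by these labels. Members and gene lists were chosen with earlier results of these data known.

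Counts were tested by the two-sided quasi-likelihood test of edgeR 4.0.16 under R 4.3.3 (TMM, filterByExpr by group, Benjamini-Hochberg adjustment over 3963 genes, threshold 0.1, the FDR marked in the study's plot of genes compared with aged (Tm), whereas its methods give an FDR of 0.5, run as an alternative). DESeq2 1.42.0, which the study's methods name, limma voom (limma 3.58.1), other normalizations, filters and thresholds, thinning to 35366 counts, a block for the replicate number and fits without single libraries were alternatives. Leaving out the 3 libraries under 60000 counts was chosen after seeing the data. The SE given with edgeR was the log2 fold change, without its sign, divided by the square root of the F statistic of its test. Tp63 means were compared in CPM by exact permutation. All members were named, with library values for those with at least 30 counts. From each other list at most 5 genes past the threshold were named by size of change, and any others named were chosen after their values were seen, as said beside them. Likeness to tp63 was Pearson's r of log2 CPM on TMM-scaled library sizes (prior count 2). The procedure was tested on simulated data. These gave all libraries the same mean profile apart from planted changes, so they do not cover the differences in composition between libraries seen here. Low counts limit precision, and 3 counts of a library were worth 4.25 to 84.8 CPM. Sequences were not used here. Figures were drawn with matplotlib.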

Additional observations from a re-analysis of the deposited data

Results flagged for a closer look

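Grhl3 in young replicate 3 had 56.55 CPM, far below the 97.3 to 103 CPM of the other young libraries: the gap to the nearest of them was 0.879 of the range of the group, above the 95% critical value of Dixon's test for 4 samples. This value rests on 2 counts in the shallowest library. It was the only 1 found among 12 groups of values checked (6 members in the aged and young groups), and chance flags about 1 in 20 such groups.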

How the results depend on the processing

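The number of members past the threshold in aged (Tm) over aged, 2, was 1 at a threshold of 0.05, with no filter and without the 3 libraries under 60000 counts, and 0 after thinning, where tp63 alone was tested; with single libraries left out it ranged from 1 to 2. In aged (Tm) over young the 1 became 3 at a threshold of 0.5 and 0 after thinning. The tp63 difference in aged over young ranged from −377 to 36.6 CPM (without aged replicate 1) with libraries left out, and its log2 fold change from −0.56 to 0.067. In aged (Tm) over aged, grhl1 turned to −0.14 with upper quartile and −0.072 with total counts, and grhl2b to 0.012 with RLE, 0.0064 with DESeq2 and 0.51 with no filter, and it ranged from −0.38 to 0.20 with libraries left out. The cause was not tested.

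All genes called numbered 1534 in aged (Tm) over aged, 28 between aged and young, and 1155 in aged (Tm) over young. They were 160, 9 and 190 after thinning to 619 testable genes, 714 to 1844, 1 to 32 and 498 to 1520 with libraries left out, 3062, 106 and 2892 at a threshold of 0.5 and 740 in the last comparison at 0.05. Without the 3 libraries under 60000 counts the first was 816. The 28 were 67 with DESeq2, 14 with total counts and 0 (91 at an unadjusted p below 0.05) when only the 2 groups were fitted. Replicate numbers mark no shared fish in the labels, and same-numbered libraries deviated together with r between −0.509 and 0.376. With the replicate number as a block, 2, 0 and 1 members passed, as without it. Few counts limit tfap2c and the KLF genes most.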
